A study of Mus musculus with 12 samples.

Results

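The T cell receptor beta and gamma loci of the mouse hold arrays of variable (V), diversity (D), joining (J) and constant (C) gene segments, and 63 gene areas for such segments were found among 37752 in all. They were chosen by symbol and chromosome alone: 51 lay in the beta locus (Trb) on chromosome 6 and 12 in the gamma locus (Trg) on chromosome 13. The beta set held 34 V, 2 D, 13 J and 2 C areas, and the gamma set held 7 V and 5 C areas. Genomic DNA had been sonicated, denatured and pulled down with an antibody against 5-methylcytosine (5mC) or against 5-hydroxymethylcytosine (5hmC), the product that Tet enzymes make from 5mC. Naive, Th1, Th2, iTreg and Th17 T cells gave 1 library with each antibody, and Th17 cells also gave 1 control IgG library and 1 input library that had seen no antibody. The series used mice on a mixed background that carried CD2(Cre)Tet2(f/f), a T cell deletion of Tet2, and wild-type littermates. The genotype, age and number of animals behind a library were not given in the labels, and neither were the culture conditions. With 1 library per group, no difference between cell types has a replicate check.

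These segments are the parts from which T cells build their antigen receptor genes. In thymocytes the Rag proteins cut beside a D and a J segment of the beta locus and then beside a V segment, and repair enzymes join the cut ends, so that the DNA in between is lost from the chromosome or, for segments in the opposite orientation, turned around. Helper T cells carry an alpha-beta receptor, and the gamma locus is often rearranged in the same precursors. Every value here is the signal per gene area that the authors deposited. A low signal may therefore come from fewer copies of the DNA or from less signal per copy. Only the Th17 cells gave input, so these cannot be told apart in the antibody libraries of the other cell types. Under the Th17 label the signal can be set beside input, as far as that label holds.

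Across all 37752 gene areas the median signal was 1.7 in the input, 0.8 in the IgG, 0.6 to 0.7 in the 5mC and 9.9 to 12.0 in the 5hmC libraries. All 5 naive T cell markers had their highest 5hmC in the naive library. The iTreg and Th17 names of the 5hmC libraries go against a pair of Th17 cytokine genes: Il17a had 31.3 and Il17f 32.8 under the iTreg label, against 8.8 and 5.3 under the Th17 label. Summed 5hmC of markers of other cells was highest in the naive library as well. For comparison, naive was the highest library in 37.6% of all gene areas. The summed 5hmC of 6 B cell markers was 304.2 in naive and 130.4 to 149.8 elsewhere, with naive highest in 4 of the 6. A sum follows its highest genes. The median log2(signal + 0.2) differences of the B cell markers from naive were -0.35 in Th1, -0.09 in Th2, -0.47 under the iTreg label and -0.11 under the Th17 label. Those of all gene areas were -0.17, -0.14, -0.15 and -0.26. The sum of 3 gamma-delta T cell markers was 75.0 in naive and 48.9 to 59.0 elsewhere, with naive highest in all 3. The sum of 4 CD8 T and NK cell markers was 187.8 in naive and 76.1 to 99.1 elsewhere, and that of 4 myeloid markers was 107.5 and 62.3 to 80.0, with naive highest in 3 of 4 in both lists. The median differences of the gamma-delta, CD8 and NK, and myeloid lists lay below those of all gene areas in each of these libraries. CD8 T cells also rearrange the beta locus. The part of such cells in the values below was not tested, and in DNA a signal at a marker gene is not its expression.

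Input DNA of the Th17 cells was low at most segments of the beta locus and highest at its first and last V areas. At or above the genome's median of 1.7 lay 6 of the 51 beta areas. Besides those V areas these were Trbv8 with 1.8 and Trbv11, Trbj2-1 and Trbj2-3 with 1.9 each. Trbv1, the V segment at the 5′ end (chromosome 6, 40841294 to 40841883, mm9), had an input signal of 2.2. Trbv31, the only beta V segment that lies after the C genes and in the opposite orientation (41507691 to 41508369), had 2.4. These were the highest input values among the 34 V areas. Between them the medians of 8 consecutive V areas each were 1.0 from Trbv2 to Trbv9, 1.1 from Trbv11 to Trbv14, 0.7 from Trbv15 to Trbv22 and 0.4 from Trbv23 to Trbv30. The lowest V areas were Trbv24 with 0.2 and, at 0.3, Trbv12-3 and Trbv19. The fall was not even, since Trbv9 had 0.5 among the upstream areas and Trbv29 had 1.5 near the end of the array. By the RefSeq gene table, Gm17526 is the V pseudogene Trbv10 and Gm17602 the J pseudogene Trbj2-6. The choice by symbol leaves both out, and their inputs were 1.8 and 0.9.

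The 2 D-J-C clusters of the beta locus differed in input. In the first cluster Trbd1 (41483199 to 41483210) had 0.3 and its 7 J areas had 0.2 or 0.3, while the constant gene Trbc1 (41488217 to 41489663) had 1.0. In the second cluster Trbd2 (41492161 to 41492174) had 1.2, the 6 J areas had 0.5 to 1.9, and Trbc2 (41496728 to 41498179) had 1.3. The medians of the clusters were 0.3 over 9 areas and 1.25 over 8 areas. An input of 0.5 or less was found in 19 of 51 beta areas and in 6.97% of all gene areas. Low input was not limited to the segments: 13 other gene areas between Trbv26 and Trbd1, most of them trypsinogen genes, had a median of 0.4 and a range of 0.2 to 0.6. Just outside the locus the input returned to 1.3 to 1.8 in the 3 gene areas before it and 1.8 to 3.3 in the 5 after it.

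**Figure D1:**
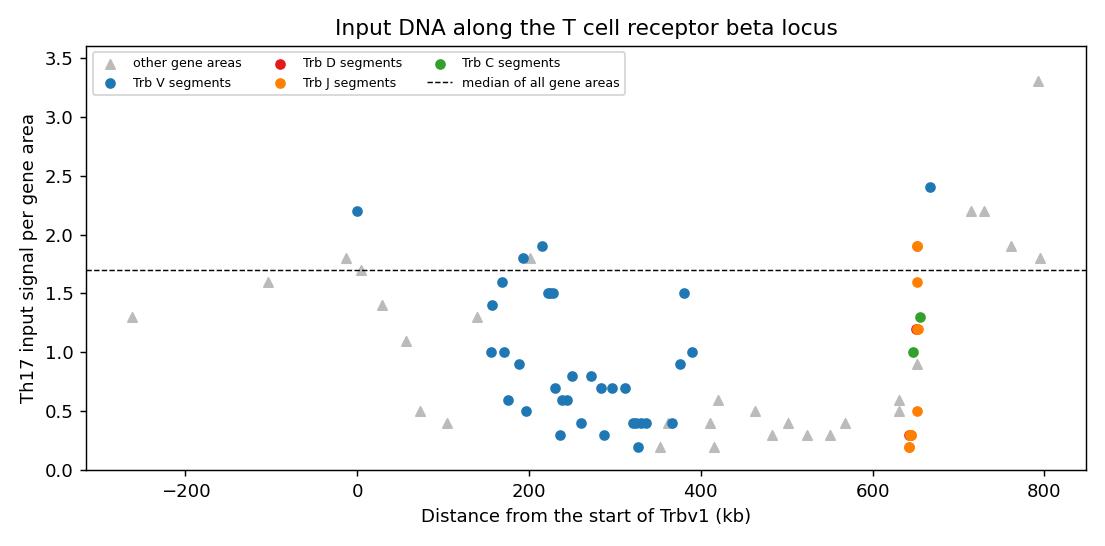
Input signal of Th17 DNA (linear axis) against distance from the start of Trbv1 in kb, with beta segments as circles coloured by class, other gene areas within 200 kb of the locus as triangles and the median of all gene areas as a dashed line. Among beta segments Trbv1 at 2.2 and Trbv31 at 2.4 stand highest above the line, and Trbv8, Trbv11, Trbj2-1 and Trbj2-3 lie just above it. The areas from Trbv15 to the first J cluster lie between 0.2 and 1.5.

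Some input values have limits of their own. Trypsinogen genes and the Trbv12 and Trbv13 families hold close copies of one another, as do Trbc1 and Trbc2, and the placing of reads shared between copies was not given in the sources used here. Between Trbv1 and Trbv2 the areas 1810009J06Rik and Gm2663 had inputs of 0.5 and 0.4, and Prss58 on the same stretch had 1.7. The part of such shared reads, and of V(D)J joining, in the low input was not tested. J and D areas are 12 to 53 bp long, and adjacent ones may share fragments, which was not tested. In 13 adjacent D and J pairs at most 652 bp apart, 7 to 11 of the 12 libraries held equal values. Part of this equality lies at the floor, since 5mC was 0 or 0.1 in all of these areas. Under the Th17 label, 5hmC of Trbd1 and its J areas was also 0. Either way, the J areas of a cluster should not be taken as 6 or 7 separate measurements.

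5mC signal was low over both loci and was listed at 0 over the first J cluster. The median of the mean over the 5 5mC libraries was 0.08 for beta areas and 0.12 for gamma areas, against 0.66 for all gene areas. Trbd1 and all 7 J areas of the first cluster, Trbj1-1 to Trbj1-7, were listed at 0 in every one of the 5 5mC libraries. The only other area at 0 throughout was Trbv18, a V pseudogene, so that 9 of 63 areas had no 5mC signal, against 2.96% of all gene areas. Most gene areas are longer and have higher input than these. Of 428 gene areas of 300 to 700 bp with input at or below 0.5, 165 were at 0 throughout, and their median 5mC was 0.06. Their median input was 0.1, below the 0.7 of the beta areas. Of 222 gene areas under 70 bp, these J and D areas included, 12 were at 0 throughout, with a median of 0.23. Low 5mC was thus also found in other areas of low input, though these sets were not matched to the loci in both length and input. Trbv19 was the next lowest V area, with 0.1 in Th2 and 0 in the other 4 libraries. Among the highest V areas in mean 5mC were Trbv30, with 0.5 in naive, 0.1 in Th1, 0.3 in Th2, 0.9 in iTreg and 0.4 in Th17, and Trbv31, with 0.3, 0.9, 0.2, 0.3 and 0.2. Trbv31 shared its mean of 0.38 with Trbv2. Their order differed from library to library, and most steps between areas are a few units of the last decimal.

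Counts of segments that differed by 2-fold in 5mC from naive were small, on the scale of log2(signal + 0.2). As shares of the 63 areas they were 3.17% to 11.1%, above the share of all gene areas in each library and direction. Relative to naive, Th1 was at least 2-fold lower at 6 of 63 areas (3.48% of all gene areas) and higher at 5 (2.95%). Th2 was lower at 6 (4.63%) and higher at 7 (2.17%). The iTreg library was lower at 6 (6.43%) and higher at 5 (1.84%), and the Th17 library was lower at 7 (5.49%) and higher at 2 (2.14%). A step from 0 to 0.2 is enough to reach that limit. The median log2 difference of the 63 areas was 0 in all 4 comparisons.

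5hmC signal lay below the genome's median at most segments. Between 52 (naive) and 59 (the library labelled iTreg) of the 63 areas were below the median of all gene areas. Classes differed in level. The median over beta V areas was 8.05 in naive, 5.8 in Th1, 4.9 in Th2, 4.6 in the library labelled iTreg and 3.8 in that labelled Th17. The median over the 13 beta J areas was 1.2, 0.5, 1.5, 1.8 and 0 in the same order. Length sets part of the comparison: over 3792 gene areas of 300 to 700 bp the medians were 5.8, 5.9, 5.7, 6.05 and 5.5, so the beta V areas stood above areas of like length in naive cells, close to them in Th1 and below them in the other 3 libraries. For 222 gene areas under 70 bp the naive median was 11.65, well above that of the J areas. Under the Th17 label, 5hmC was also set against input on the scale of log2(signal + 0.2). The median difference was 2.63 for beta V areas, 1.90 for areas of 300 to 700 bp and 2.48 for all gene areas. For beta J areas, many of them listed at 0, it was -1, against 1.96 for areas under 70 bp. This pairing rests on the Th17 label, which Il17a and Il17f go against.

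V areas varied far more among themselves than the medians show. Trbv11, a V pseudogene (41056803 to 41057301), had 67.3 in naive, 31.5 in Th1, 44.0 in Th2, 29.0 in the library labelled iTreg and 71.5 in that labelled Th17. It was the highest beta segment in each of the 5 libraries, with an input of 1.9 and an IgG signal of 1.6. Where 5 values follow one another below, they keep this order of libraries. Trbv31 followed with 23.0, 9.9, 21.8, 14.9 and 16.8 and had its lowest value in Th1. Trbv13-1, of a family of V segments used by many alpha-beta T cells, had 52.4 in naive, 21.8 in Th1, 3.9 in Th2, 3.9 in the library labelled iTreg and 1.6 in that labelled Th17. Its mean over the libraries, 16.7, therefore rests mainly on naive and Th1. At the other end stood Trbv29 with 1.2, 2.1, 2.1, 2.8 and 1.8, and Trbv6, a V pseudogene, with 4.7, 0.7, 2.6, 0.9 and 2.1. Trbv30 had 0.9, 8.8, 1.5, 0.5 and 0.2, so that only its Th1 value was high. Trbv1 had 9.9, 17.4, 14.5, 9.3 and 8.4.

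By the RefSeq gene table, 22 beta V areas are V segments and 12 are pseudogenes. The median naive 5hmC was 9.65 for the former and 5.25 for the latter, and the medians in the library labelled Th17 were 3.8 for both. The highest area of all, Trbv11, is in the pseudogene group. Across the 34 V areas, Spearman's rho between naive and the other 5hmC libraries was 0.51 to 0.57, a description over areas that share 1 locus and its local coverage. The 10 beta V areas with input at or below 0.5 had 5hmC medians of 7.8, 4.3, 3.6, 2.45 and 4.1 in naive, Th1, Th2 and under the iTreg and Th17 labels. These were below the medians of all V areas in Th1, Th2 and under the iTreg label, and close to them in naive and under the Th17 label. Over 428 gene areas of 300 to 700 bp with input at or below 0.5 the medians were 0.9, 0.7, 0.5, 0.7 and 0.7. Their median input was 0.1, against 0.4 for the 10 V areas, so the sets are not matched in input. The number of reads behind either set is unknown.

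**Figure D2:**
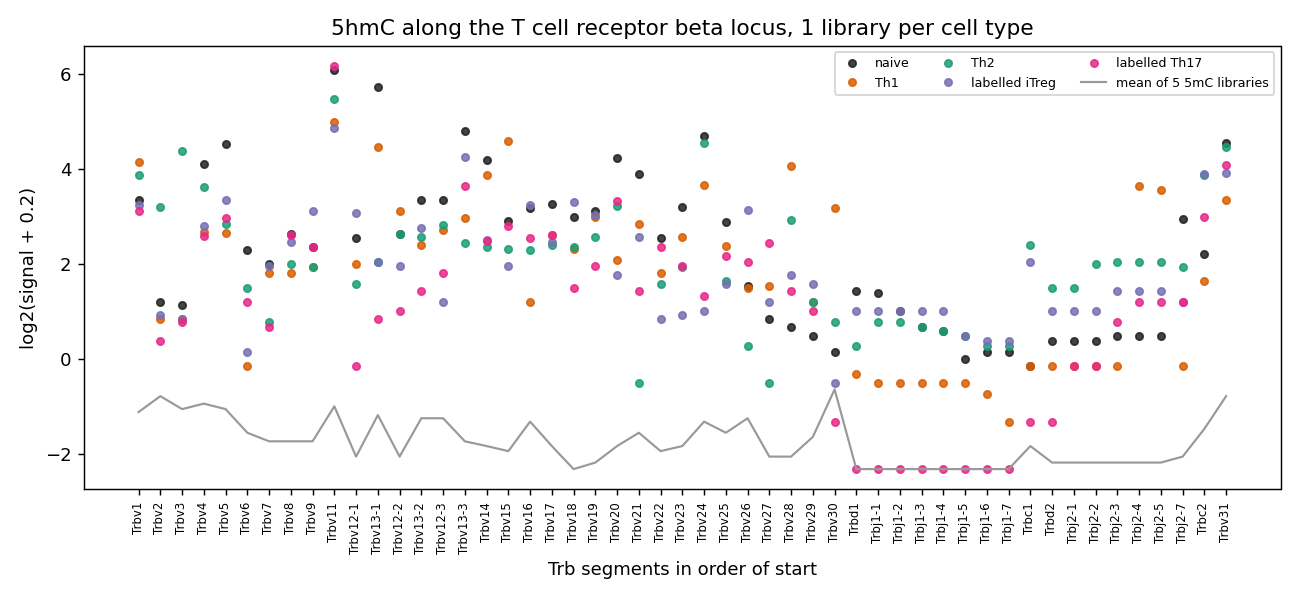
log2(signal + 0.2) of 5hmC for the 51 beta segments in order of start, 1 point per library, with the mean of the 5 5mC libraries as a grey line. Trbv11 is highest in every library, and Trbd1 with Trbj1-1 to Trbj1-7 form a plateau at the bottom, where the library labelled Th17 is listed at 0.

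D, J and C areas of the beta locus were low in naive and took different orders in the other libraries. Trbd1 had 5hmC of 2.5 in naive, 0.6 in Th1, 1.0 in Th2, 1.8 in the library labelled iTreg and 0 in that labelled Th17, and Trbd2 had 1.1, 0.7, 2.6, 1.8 and 0.2. Among J areas, Trbj1-7 was lowest with 0.9, 0.2, 1.0, 1.1 and 0. Trbj2-4 was highest with 1.2, 12.2, 3.9, 2.5 and 2.1, a mean set by the Th1 library. The constant genes, which encode the membrane-anchored part of the chain, had their highest values in the Th2 library and under the iTreg label. Trbc1 had 0.7, 0.7, 5.1, 3.9 and 0.2, and Trbc2 had 4.4, 2.9, 14.5, 14.6 and 7.7. Trbd1 and its J areas were listed at 0 in the library labelled Th17, where input was 0.2 to 0.3.

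Compared with naive cells, beta V areas had lower 5hmC in each of the 4 differentiated libraries. Of 34 V areas, 27 lay below naive in Th1, 27 in Th2, 26 in the library labelled iTreg and 28 in that labelled Th17, with median log2 differences of -0.63, -0.71, -0.64 and -0.997. The medians over all gene areas were -0.17, -0.14, -0.15 and -0.26. Of all 37752 gene areas, 21821, 21423, 21399 and 22723 lay below naive in the same order. At least 2-fold lower were 11, 11, 13 and 17 of the 34, where the shares of all gene areas were 15.4%, 14.8%, 14.4% and 23.5%. At least 2-fold higher were 3, 3, 3 and 1, where the shares were 7.38%, 7.5%, 7.36% and 7.29%. All 4 comparisons use the same naive library, so they are not independent of one another.

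The library with the highest or the lowest 5hmC differed from segment to segment. Naive was the highest in 19 of 34 V areas and in 22 of 51 beta areas, against 37.6% of all gene areas. The library labelled iTreg was the highest in 11 beta areas (15.1% of all), Th1 in 7 (13.6%), Th2 in 7 (16.1%) and that labelled Th17 in 2 (14.2%). The library labelled Th17 was the lowest in 22 of 51 beta areas, against 31.9% of all gene areas, and 8 of these are the Trbd1 and first-cluster J areas listed at 0. Th1 was the lowest in 8 (15.6%), iTreg in 8 (13.2%), Th2 in 6 (14.8%) and naive in 4 (18.8%). Among the 12 gamma areas naive was the highest in 5 and the lowest in 4.

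Scaling moved these numbers. When each library was scaled by median ratios, the differences from naive rose by 0.19 in Th1, 0.15 in Th2, 0.16 in the library labelled iTreg and 0.30 in that labelled Th17. The V medians were then -0.44, -0.56, -0.49 and -0.71, with all gene areas at 0. The V areas at least 2-fold lower then numbered 8, 10, 13 and 13 of 34, where the shares of all gene areas under this scaling were 10.6%, 11.1%, 10.3% and 15.8%. With Th1 and Th2 alone in the mean of differentiated libraries, the median difference over the 51 beta areas was -0.64, and with all 4 libraries it was -0.71.

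Single V areas show how the difference was spread. Trbv13-1 had the lowest mean log2 difference from naive, -3.37, and all of its 4 values lay below naive. Trbv21 had 14.7 in naive and 7.0, 0.5, 5.7 and 2.5 in Th1, Th2 and the libraries labelled iTreg and Th17, a mean difference of -2.32. Trbv24 had 25.6 in naive, 12.4 in Th1, 23.1 in Th2, 1.8 and 2.3, so that Th2 was close to naive while the libraries labelled iTreg and Th17 were low. A few V areas went the other way. Trbv28, a V pseudogene, had 1.4 in naive and 16.6, 7.4, 3.2 and 2.5 in the others, a mean difference of 1.87. Trbv29 had a mean difference of 0.76 at low values. Trbv3 had 20.5 in Th2 and 1.5 to 2.0 elsewhere, and its neighbour Trbv2 had 9.0 in Th2 and 1.1 to 2.1 elsewhere. In Trbv3 and Trbv2 the high value thus came from 1 library, and the IgG signals were 1.6 and 4.0.

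Beta segments outside the V array did not share 1 direction. Of the 13 J areas, 11 lay below naive in Th1 and 10 in the library labelled Th17. Above naive lay 8 of them in Th2 and 10 under the iTreg label. Of all 37752 gene areas, 21821 and 22723 lay below naive in Th1 and under the Th17 label. Above naive lay 15200 in Th2 and 15194 under the iTreg label. The median J differences were -0.87, 0.13, 0.42 and -2.32 in Th1, Th2 and the libraries labelled iTreg and Th17. Under median-ratio scaling they were -0.73, 0.25, 0.55 and -2.20, so no sign turned. These medians rest on values near the last decimal and on 2 clusters, and in the library labelled Th17 the 7 J areas of the first cluster are listed at 0, where the difference is set by the pseudocount.

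**Figure D3:**
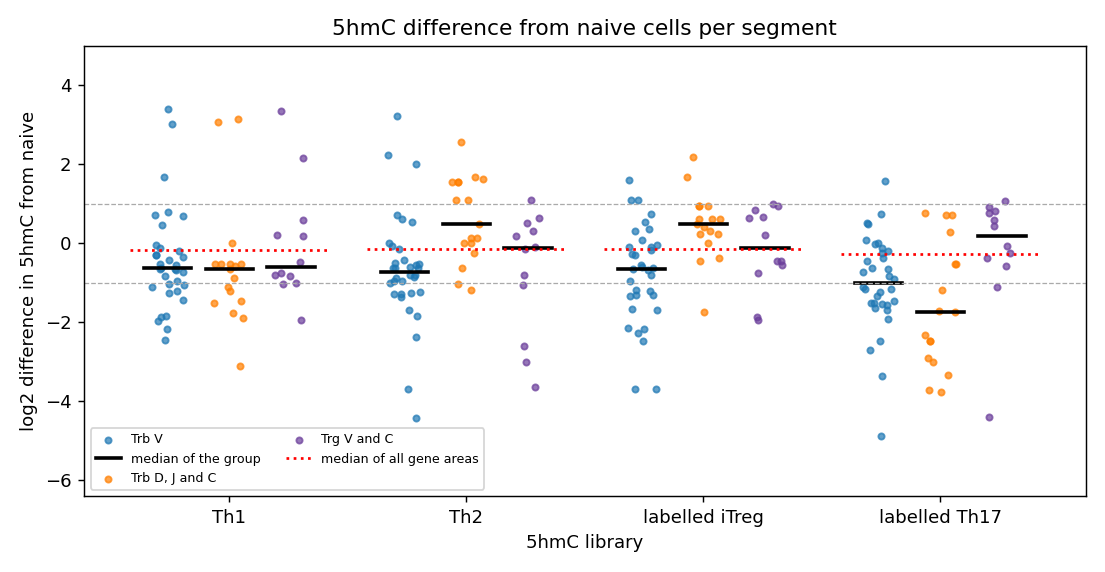
log2 difference in 5hmC from naive for each segment in the 4 differentiated libraries, with points for beta V, beta D, J and C, and gamma segments, black bars for group medians, a dotted line for the median of all gene areas and dashed lines at 2-fold. The beta V medians lie at -0.63, -0.71, -0.64 and -0.997, below the dotted line in each library.

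The excess of naive 5hmC was larger over the beta locus as a whole than over its listed gene areas. The table has a row for the whole locus, Tcrb (40841294 to 41508369), with 5hmC of 20.0 in naive, 9.4 in Th1, 9.6 in Th2, 7.8 in the library labelled iTreg and 6.3 in that labelled Th17. If each value is a mean over all bases, which the sources used here do not state, the 71 separate gene areas inside it cover 17.3% of its length and average 6.94, 6.33, 7.20, 6.45 and 6.08. The rest of the locus then averages 22.7, 10.0, 10.1, 8.08 and 6.35. By this split the remainder dropped from naive while the length-weighted mean of the listed areas moved little. That mean is set largely by long areas, such as 1700074P13Rik with 20098 bp and Trbv17 with 10465 bp, and it does not describe the short V areas, whose medians were below naive in all 4 libraries. For input the same split gave 0.85 in the listed areas and 1.51 in the rest.

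**Figure D4:**
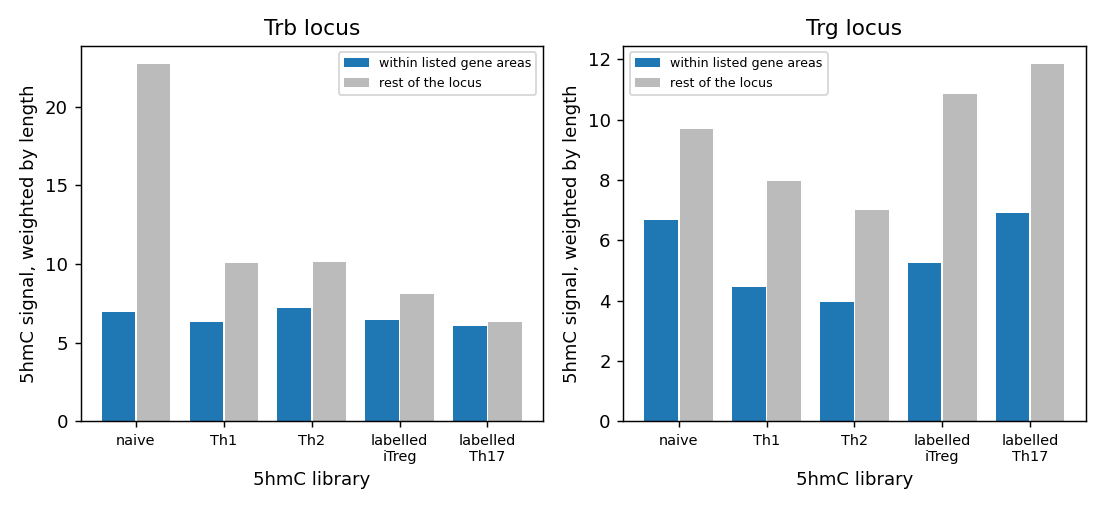
Mean 5hmC signal weighted by length within the listed gene areas (blue) and over the rest of the locus (grey) in the 5 libraries, for Trb (left) and Trg (right). In Trb the grey bar falls from 22.7 in naive to 6.35 in the library labelled Th17 while the blue bars stay between 6.08 and 7.20.

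Between the antibodies, limma with cell type as a block was fitted to the 28314 gene areas past a filter on mean signal, after centring each library on its median. Only 15 of the 63 segments passed that filter, 13 beta and 2 gamma. They passed through their 5hmC, since their 5mC was 1.0 or less, so a direction of higher 5hmC was favoured before the fit and the counts are a description of these 15. A call of higher 5hmC than 5mC was made in 10.2% of gene areas and a call of lower in 7.63%. Among the segments 3 were called higher and 0 lower, and at an unadjusted p under 0.05 also 0 were lower. Trbv11 had a log2 difference of 3.03 (SE 0.51, limma adjusted p = 0.00227). Trbv13-3 had 1.54 (SE 0.37, limma adjusted p = 0.0112) with 5hmC of 27.7, 7.6, 5.2, 18.8 and 12.3, and Trbv31 had 1.12 (SE 0.33, limma adjusted p = 0.0258). After centring, 5hmC was the higher in 5 of 5 cell types at Trbv11 and Trbv13-3 and in 4 of 5 at Trbv31, where Th1 had -0.48. The call of Trbv31 was lost when the naive, Th2, iTreg or Th17 libraries were left out (limma adjusted p = 0.0565 to 0.0887). In these fits the calls of Trbv11 and Trbv13-3 were kept. Trbv1 had 0.83 (limma adjusted p = 0.0274), under the 2-fold limit. Trbc2, with 0.61 (limma adjusted p = 0.273), and the gamma areas Tcrg-C and Tcrg-C4 were not called. With a pseudocount of 1 only Trbv11 stayed called. Trbv13-3, with 5mC of 0 to 0.2, then had 0.51 (limma adjusted p = 0.176), and Trbv31 had 0.62 (limma adjusted p = 0.0554). Without the block 5 segments were called higher. Without the filter 7 were called higher and 14 lower (16.1% of all gene areas), the latter including Trbd1 and 6 of its 7 J areas. With no centring all 15 were called higher, as were 99.8% of the gene areas fitted.

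Gamma segments, V and C together, had lower median 5hmC than beta V areas in every library, 3.2 in naive, 3.75 in Th1 and 2.45 to 2.65 in the other 3. Over all 51 beta areas the medians were 4.9, 3.6, 3.9, 2.8 and 2.3. Against these the gamma median was higher in Th1 and under the Th17 label and lower in the other libraries. Gamma segments showed no shared direction from naive. The locus runs through 4 V-J-C clusters, and RefSeq names 4 J areas there under the predicted symbols Gm17003, Gm16604, Gm16674 and Gm16673, which the choice by symbol does not include. Of the constant genes, Tcrg-C4 (chromosome 13, 19436426 to 19444211) had 12.9 in naive, 6.3 in Th1, 7.3 in Th2, 9.5 in the library labelled iTreg and 9.9 in that labelled Th17. Tcrg-C (19431693 to 19444633), a longer area that contains Tcrg-C4 and Tcrg-V1, had 10.4, 5.0, 4.9, 7.0 and 10.0, so these are not separate measurements. Tcrg-C1 (19305971 to 19308486) had 1.8, 2.1, 2.3, 3.0 and 2.8, Tcrg-C2 (19396928 to 19399420) had 2.6, 4.0, 4.2, 4.2 and 4.6, and Tcrg-C3 (19352753 to 19355265) had 1.1, 5.6, 2.6, 2.3 and 2.1. Naive was lowest in Tcrg-C1, Tcrg-C2 and Tcrg-C3 and highest in Tcrg-C4 and Tcrg-C.

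Among gamma V areas, Tcrg-V3 had the highest mean with 4.4, 5.0, 6.4, 8.1 and 6.1, and Tcrg-V7, the first in the locus (19269910 to 19270360), had 4.9, 3.5, 4.6, 5.7 and 9.4. Tcrg-V5 had 11.0 in Th1 and 0.8 to 2.1 elsewhere. Low areas were Tcrg-V4 with 1.3, 0.7, 1.5, 0.9 and 0.5, Tcrg-V2 with 2.3, 1.2, 0, 1.3 and 1.9, and Tcrg-V6 with 4.0, 0.9, 0.5, 0.9 and 0. Tcrg-V1, the last, had 3.8, 2.1, 0.3, 0.9 and 2.5. The mean log2 differences from naive were lowest at Tcrg-V6 (-2.71), Tcrg-V1 (-1.56) and Tcrg-V2 (-1.37) and highest at Tcrg-V5 (1.32), Tcrg-V3 (0.50) and Tcrg-V7 (0.14). Those of Tcrg-V6 and Tcrg-V2 include a library listed at 0 and depend on the pseudocount. At least 2-fold lower than naive were 3, 4, 2 and 2 of the 12 gamma areas, where the shares of all gene areas were 15.4%, 14.8%, 14.4% and 23.5%. At least 2-fold higher were 2, 1, 1 and 1, where those shares were 7.38%, 7.5%, 7.36% and 7.29%. With 12 areas, counts of 1 or 2 are near these shares. The median differences were -0.60, -0.11, -0.11 and 0.20, and under median-ratio scaling they were -0.43, 0.02, 0.04 and 0.49.

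Input along the gamma locus was uneven at its start. Tcrg-V7 had 2.5 and Tcrg-V4 had 1.8, while the next V areas Tcrg-V6 and Tcrg-V5 had 0.4 and 0.1 and the J area Gm17003 after them had 0.2. From Tcrg-C1 on, the segments had 0.7 to 1.3. The whole-locus row, Tcrg, had 1.3, and 5 gene areas outside it had 1.1 to 1.8. The whole-locus 5hmC was 9.3 in naive, 7.5 in Th1, 6.6 in Th2, 10.1 in the library labelled iTreg and 11.2 in that labelled Th17, an order unlike that of Tcrb.

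**Figure D5:**
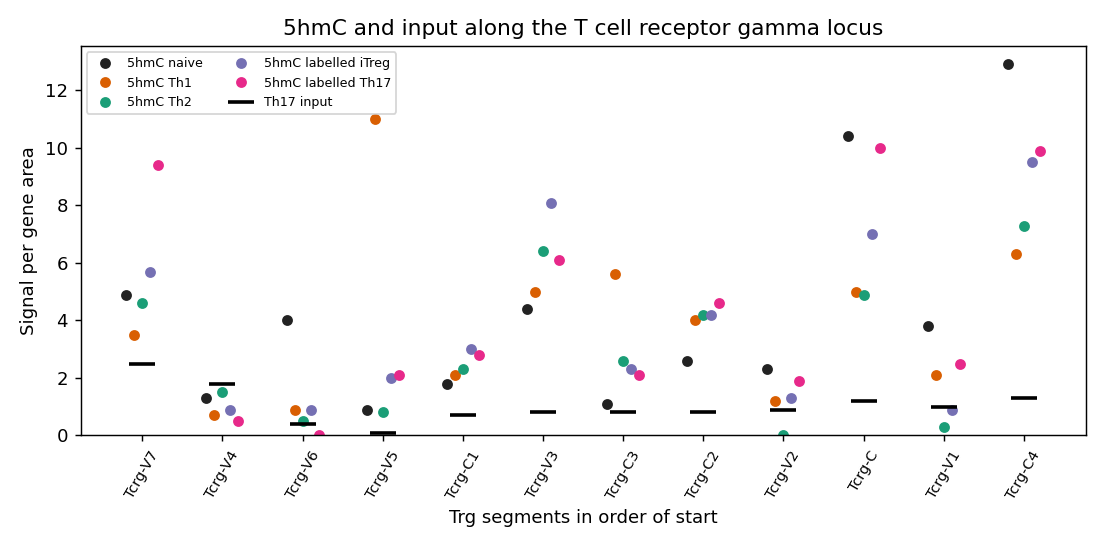
5hmC signal (linear axis) of the 12 gamma segments in order of start, 1 point per library, with Th17 input as black dashes. Tcrg-C4 is highest in naive, in Th2 and under the iTreg label with 12.9, 7.3 and 9.5, and the input dash falls from 2.5 at Tcrg-V7 to 0.1 at Tcrg-V5.

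The antigen receptor loci of other lymphocyte chains gave a frame for these values. The alpha and delta segments on chromosome 14, which the same cells rearrange, had a median input of 0.2 over 89 areas and a median 5hmC of 4.1 in naive and 1.2 to 1.8 in the other libraries. Of these areas, 44, 50, 46 and 52 were at least 2-fold below naive in Th1, Th2 and the libraries labelled iTreg and Th17, against 15.4%, 14.8%, 14.4% and 23.5% of all gene areas. The immunoglobulin segments, which B cells rearrange, had median inputs of 0.9 over 170 kappa areas and 1.4 over 106 heavy chain areas. Their 5hmC medians in naive were 2.3 and 4.0 and those in the differentiated libraries 2.8 to 3.35 and 3.75 to 4.35. The beta areas, with an input median of 0.7, lay between the alpha and delta areas and the kappa areas, and their 5hmC medians were 4.9 in naive and 2.3 to 3.9 in the others. With 1 library per group these differences between loci were not tested.

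IgG signal marked 3 beta areas where background was high. Trbv13-2 had 7.9 with IgG against 0.7 in the input, Trbj1-3 had 6.2 against 0.3 and Trbv2 had 4.0 against 1.0. For Trbj1-3 the IgG signal was above its 5hmC in all 5 libraries, which reached 1.8. In the second D-J-C cluster all 8 areas had an IgG signal of 1.8, above their median 5hmC of 1.2 in naive and 0.7 in Th1, equal to that of 1.8 under the Th17 label and below those of 3.85 in Th2 and 2.3 under the iTreg label. Differences among libraries at those areas thus include values at or below the IgG signal. The median IgG signal over the 63 areas was 0.4.

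Gene areas near the loci varied as well. The lowest near Trb was Try10, a trypsinogen gene, with 5hmC of 0.2, 0.7, 0.5, 0.2 and 1.1, and the highest was Prss58, a serine protease gene, with 14.6, 21.5, 19.8, 14.2 and 15.4. Near Trg the lowest was Gm16674, a J segment by RefSeq, with 0, 0.2, 0, 0.9 and 0.2, and the highest was Gm18131, a pseudogene, with 7.6, 14.5, 19.7, 41.4 and 6.6.

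Genes of a list for V(D)J recombination had their highest 5hmC in naive for the most part. Besides genes whose products cut and join DNA, the list holds others such as Ctcf, Rad21 and Hmgb1. All 18 genes of the recombination list were found, and naive was the highest library in 13, against 37.6% of all gene areas. At least 2-fold lower than naive were 3 in Th1, 5 in Th2, 3 in the library labelled iTreg and 5 in that labelled Th17, and 0 were higher. The shares of all gene areas were 15.4%, 14.8%, 14.4% and 23.5% lower and 7.29% to 7.5% higher. The counts of lower genes in Th1 and under the iTreg and Th17 labels are thus near the background. Rag1, which encodes the cutting subunit, had 31.6 in naive and 18.5, 11.2, 20.7 and 18.5 in the others. Rag2, its partner, had 24.8 and 15.5, 18.0, 15.8 and 13.4. Dntt, the enzyme that adds bases at joins, had 34.1 and 17.9, 23.9, 19.7 and 20.8. The highest of the list by mean was Hmgb1, a DNA-bending cofactor, with 48.7 and 24.3, 28.4, 31.8 and 22.8. The lowest was Prkdc, the catalytic subunit of the DNA repair kinase, with 11.8 and 9.7, 5.5, 7.7 and 8.5. limma called 2 of the 18 higher in 5hmC than 5mC, near the 10.2% of all gene areas fitted, and 0 lower (7.63%).

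The genes of the invariant proteins that pair with the receptor chains also had their highest 5hmC in naive cells, from 39.5 at Ptcra, the partner of the beta chain in thymocytes, to 105.0 at Cd247. Naive was the highest library in all 5 (37.6% of all gene areas), and 3, 2, 2 and 4 of them were at least 2-fold lower in Th1, Th2 and the libraries labelled iTreg and Th17, against 15.4%, 14.8%, 14.4% and 23.5% of all gene areas. Cd247, which encodes the zeta chain, had 105.0 in naive and 56.4, 56.5, 65.7 and 41.1 in the others. limma called 4 of the 5 higher in 5hmC than 5mC (10.2% of all gene areas fitted), among them Cd3d with a log2 difference of 1.72 (SE 0.20, limma adjusted p = 0.000476).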

How the data were processed

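Signal per gene area, deposited by the authors with 1 decimal, was used for 12 libraries. CASAVA 1.7.0 and the genome build mm9 come from the submitters' processing notes. For counting, fragment extension, duplicate removal and scaling, the settings were not given in the sources used here, so read depth is unknown and no counting interval or detection limit was computed. Each value column was assigned through the number its library's title carries, and 0 value columns were unused. Coordinates are as in the file; whether they count from 0 or 1 is not stated. With both ends counted, 60 of 62 segments found in the RefSeq table of assembly GRCm38.p6 had its length; Trbv17 had 10465 bp against 465. No sequence is printed for these segments.

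All 37752 rows were kept. Differences used log2(signal + 0.2), which understates changes of low areas, and 2-fold means a log2 difference of at least 1. The count against naive used no filter. For 5hmC against 5mC, limma 3.58.1 (R 4.3.3, trend, cell type as a block, libraries centred on their medians, Benjamini-Hochberg) used the 28314 areas with a mean of at least 3.30, the 25th percentile. A call needed adjusted p under 0.05 and 2-fold. The block rests on the labels, which give both antibodies' libraries the same cell type; the spread is that between cell types. On simulated data over 28314 areas 64 of 100 areas given a log2 difference of 1.5 were called, as were 94 of 100 given 3 and 6 of 28114 left as they were. Python 3.11.15, numpy 2.4.6, pandas 2.3.3 and matplotlib 3.10.9 were used.

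Named areas are all C and D areas, the extreme J areas, the V areas first, last or extreme in 5hmC, in difference from naive, in input or in 5mC, and the extreme neighbours. Trbv13-3, Trbv2, Trbv9, Trbv13-2, Trbj1-3, 1810009J06Rik, Gm2663, 1700074P13Rik, Cd247, Cd3d and Ptcra were added after their values were seen. The members, lists and tests were chosen with earlier results of these data known.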

Additional observations from a re-analysis of the deposited data

How the results depend on the processing

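The counts of segments at least 2-fold from naive depended on low values; shares of all gene areas at the same setting stand in parentheses. With a pseudocount of 1, lower 5hmC was counted at 13 segments in Th1 (12.9%) and 10 in Th2 (12.3%), against 21 and 17 with 0.2. Higher 5hmC was then counted at 3 in the library labelled iTreg (5.12%) and 1 in that labelled Th17 (5.21%), against 6 and 2 with 0.2, and every 5mC count became 0 (0.215% to 0.985%). With the filter on mean signal, which leaves 15 segments, lower 5hmC was counted at 10, 6, 7 and 7 in Th1, Th2 and the libraries labelled iTreg and Th17 (16.1%, 14.8%, 14.8% and 25.6%), and higher at 1, 1, 1 and 0 (4.35%, 4.86%, 4.54% and 4.66%). With that filter the 5mC counts were 0, 1, 1 and 1 lower (2.23%, 3.13%, 4.63% and 3.98%) and 2, 1, 3 and 0 higher (2.22%, 1.56%, 1.33% and 1.5%). Median-ratio scaling gave 11 and 7 higher in 5hmC in the libraries labelled iTreg and Th17 (9.55% and 12.5%) and 3 lower in 5mC of iTreg (4.52%). Among areas of at least 200 bp, 6 segments were higher in Th2 (7.31%), against 12 in all. The cause of these shifts was not tested, beyond the smaller number of segments under the filters. Keeping 1 row per symbol changed none of these counts.

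For 5hmC against 5mC, limma called 1 segment, Trbv11, higher with a pseudocount of 1 (8.51%). It called 5 higher without the replicate block (10.2%), 5 without trend (10.2%) and 15 with no centring (99.8%). With no filter it called 7 higher (9.64%) and 14 lower (16.1%). Leaving out each cell type gave 2 to 4 higher (9.75% to 10.6%) and 0 lower (7.37% to 7.85%). Trbv31 was not called without naive, Th2, iTreg or Th17. Leaving out the libraries labelled iTreg and Th17, chosen after seeing the data, gave 3 higher (10.8%) and ended the call of Trbv13-3 and of Trbv31. Limits of depth could not be computed, and 5mC values that differ by 0.1 cannot be ordered.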
